A study of Mus musculus with 4 samples.

Results

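The genes that write, maintain and remove DNA methylation were examined in mouse E14 embryonic stem cells that had received an shRNA against MERVL, an endogenous retrovirus transcribed in the 2-cell embryo. The set was chosen by name and holds 8 genes of the 43496 Ensembl genes in the deposited count table: Dnmt1, Dnmt3a, Dnmt3b, Dnmt3l, Uhrf1, Tet1, Tet2 and Tet3. Each name matched 1 row, and all 8 passed the filter on low counts. RNA was sequenced from 2 MERVL shRNA libraries (labelled MERVL knocked down) and 2 random shRNA libraries (labelled wild type). Cells of both groups carry the strain label 12910la and grew on gelatin in 15% serum with LIF at 10 ng/ml. The shRNA came from a pSuper puro plasmid, of which 1000 ng was transfected, and puromycin at 1 µg/ml followed from 24 h on for 4 days. The column names point to a single MERVL construct, sh3, so an effect of that construct and an effect of MERVL loss cannot be told apart. Whether replicates came from separate cultures is not stated in the labels. The p-values therefore reflect the spread among these samples alone, and that spread may be technical.

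In mammals, Dnmt3a and Dnmt3b place methyl groups on unmethylated CpG sites, and Dnmt3l, which has no catalytic activity of its own, binds and stimulates them. Dnmt1 copies the marks onto the new strand after replication, and Uhrf1 brings it there by recognising hemimethylated CpG and modified histone H3. Tet1, Tet2 and Tet3 oxidise 5-methylcytosine, a first step of its removal. Embryonic stem cells in serum are known for high levels of the Dnmt3 family, of Tet1 and of Tet2, and for a fluctuating minority of 2-cell-like cells that transcribe MERVL. The values here are RNA levels of the genes, and no methylation level enters.

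Libraries held 11628887 to 16067854 estimated counts, of which the 8 genes took 0.138% to 0.161%. Scaled by TMM, the sum of all MERVL copies was 1161 and 572.3 CPM (the usual unit of counts relative to library size) with MERVL shRNA, against 4661 and 1431 CPM with random shRNA, with replicate 1 given before replicate 2 throughout. Random shRNA replicate 1 stood apart: it was farther in MERVL from random shRNA replicate 2 than that library was from either MERVL shRNA library. Across features log2 CPM of the MERVL shRNA libraries correlated with a Pearson r of 0.995, and that of the random shRNA libraries with 0.972. Embryonic stem cell markers were abundant in every library, with 1244 to 1574 CPM for Pou5f1. The summed level of 8 fibroblast markers was 18.5 and 15.3 CPM with MERVL shRNA and 30.9 and 41.4 CPM with random shRNA, mostly Thy1 and Pdgfrb, and 4 of them, Col3a1, Dcn, Lum and Postn, were listed at 0 throughout. Markers of trophoblast summed to 32.5 to 53.8 CPM and those of primitive endoderm to 13.6 to 19.0 CPM over the 4 libraries. The part of these other cell types in the results was not tested.

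With MERVL shRNA, Dnmt3l RNA stood at 0.595 times and Tet2 RNA at 1.71 times the random shRNA level in the fitted means. The other 6 genes lay closer to their controls. Groups did not overlap in 6 of the 8 genes, Dnmt3l and Tet2 among them, beside 46.2% of all features. None of the 8 passed the edgeR quasi-likelihood test after adjustment over all 16353 features tested (smallest adjusted p = 0.288 for Dnmt3l), where 0.00612% of features passed. At an unadjusted p under 0.05 edgeR gave 2 of the 8, Dnmt3l and Tet2, beside 13.6% of all features. DESeq2 called both (1.62% of features called), and limma-voom called 0 of the 8 (0% of features called). In bulk RNA, fewer cells with a transcript and less of it per cell cannot be told apart.

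**Figure D1:**
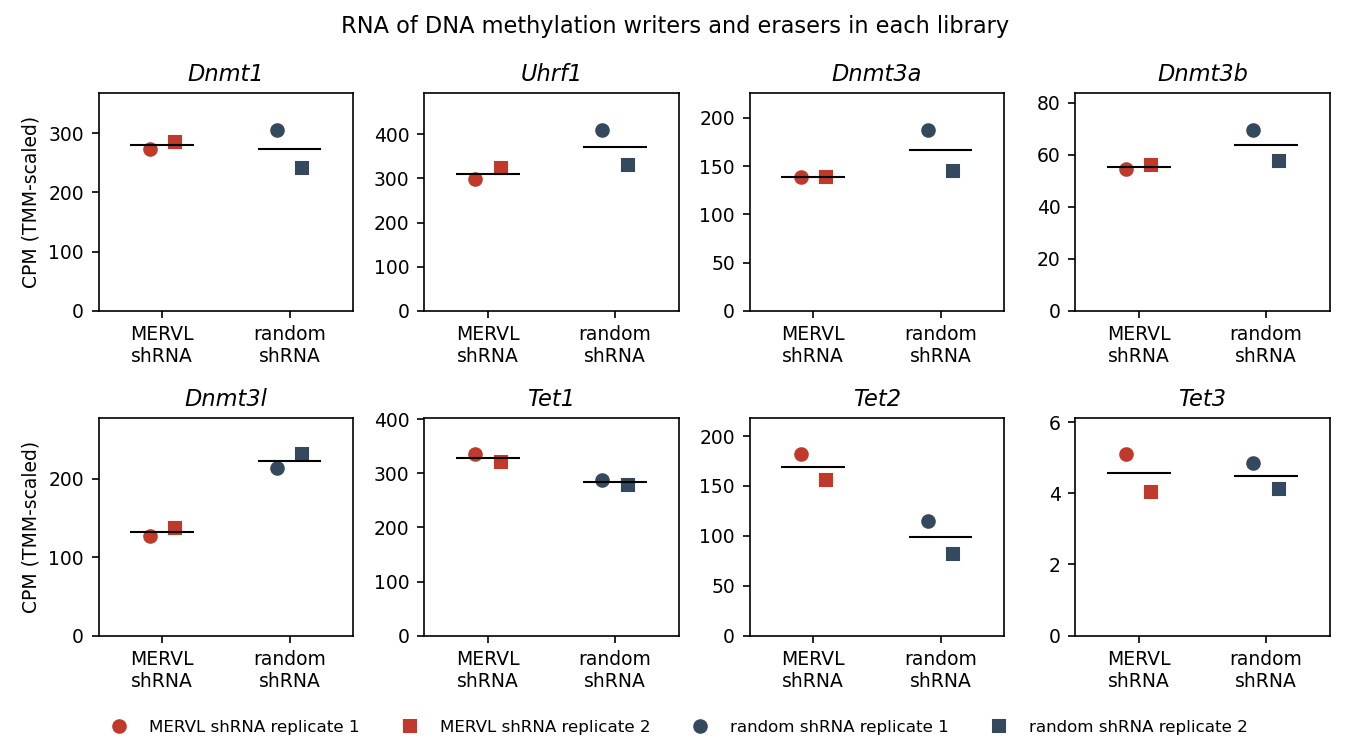
CPM (TMM-scaled, linear axis from 0) of the 8 genes in each of the 4 libraries; red points are MERVL shRNA and dark points random shRNA, circles replicate 1 and squares replicate 2, and bars the group means. The groups of Dnmt3l, Tet1 and Tet2 lie apart by more than their own replicates, and Dnmt3l and Tet2 have the largest fold changes. In MERVL shRNA and random shRNA libraries the means were 132.6 and 222.7 CPM for Dnmt3l. Those of Tet2 were 168.6 and 98.6 CPM.

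Dnmt3l, the cofactor of the de novo enzymes, lies on chromosome 10 (GRCm38, positions 78041947 to 78063622, plus strand). It had 127.8 and 137.4 CPM with MERVL shRNA, against 214.1 and 231.3 CPM with random shRNA. Each pair agreed closely and the pairs lay far apart. Group means were 132.6 ± 6.72 CPM with MERVL shRNA and 222.7 ± 12.1 CPM with random shRNA (SD, n = 2 each). The log2 fold change was -0.75 ± 0.14 (SE), with a 95% interval of -1.08 to -0.41 and an edgeR adjusted p of 0.288. Only 78 of the 16353 features had a smaller p, which is 0.477% of them. Between same-numbered libraries the MERVL shRNA to random shRNA ratio was 0.597 for replicate 1 and 0.594 for replicate 2. Dnmt3l was also the only one of the 8 that was lower in random shRNA replicate 1 than in replicate 2, the direction opposite to MERVL.

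Annotated starts of Dnmt3l hold fewer CpG than the median start, CpG being the dinucleotide on which these enzymes act. RefSeq (GRCm38.p6) gives 3 starts for it, and a count per gene does not tell which was used. The 250 bases before each are shown 5′ to 3′ with every CpG in capitals, beside the single RefSeq window of Tet2, because these genes had the largest fold changes of the 8 and their starts differ widely in CpG content.
Dnmt3l window 1, chr10:78042037-78042286, plus strand: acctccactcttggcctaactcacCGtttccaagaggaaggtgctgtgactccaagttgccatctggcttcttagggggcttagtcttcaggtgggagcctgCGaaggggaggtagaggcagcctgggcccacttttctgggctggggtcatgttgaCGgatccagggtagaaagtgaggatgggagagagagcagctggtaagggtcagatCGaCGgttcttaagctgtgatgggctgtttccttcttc
Dnmt3l window 2, chr10:78049592-78049841, plus strand: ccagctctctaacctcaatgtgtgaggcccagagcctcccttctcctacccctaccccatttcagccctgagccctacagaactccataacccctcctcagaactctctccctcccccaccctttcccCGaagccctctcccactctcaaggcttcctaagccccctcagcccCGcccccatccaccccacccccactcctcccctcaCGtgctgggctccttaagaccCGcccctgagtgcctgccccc
Dnmt3l window 3, chr10:78055085-78055334, plus strand: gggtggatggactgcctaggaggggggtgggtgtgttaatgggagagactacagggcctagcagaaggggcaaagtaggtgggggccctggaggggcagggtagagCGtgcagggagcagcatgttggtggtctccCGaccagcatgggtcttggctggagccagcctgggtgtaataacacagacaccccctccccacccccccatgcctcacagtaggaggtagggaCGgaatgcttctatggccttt
Tet2 window, chr3:133544391-133544640, minus strand: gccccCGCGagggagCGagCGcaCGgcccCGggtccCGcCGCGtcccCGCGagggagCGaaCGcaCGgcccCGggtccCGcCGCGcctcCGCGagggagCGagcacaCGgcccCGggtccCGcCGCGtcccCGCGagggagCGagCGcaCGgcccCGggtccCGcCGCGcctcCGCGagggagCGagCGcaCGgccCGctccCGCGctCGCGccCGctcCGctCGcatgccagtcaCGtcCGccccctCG
The Dnmt3l windows hold 5, 4 and 3 CpG and the Tet2 window holds 51. Over 32851 RefSeq windows of this length the median was 6 CpG, with quartiles of 2 and 16, and 92.1% had at least 1. The Tet2 window is thus richer in CpG than 99.9% of them, while between 29.0% and 44.4% had fewer than the Dnmt3l windows. CpG reads the same on both strands, so 1 search covers both. Of the other members, windows with 15 to 40 CpG were found for Dnmt1, Uhrf1, Dnmt3a, Dnmt3b, Tet1 and Tet3, and Dnmt1 and Uhrf1 also have poorer ones with 2 to 10.

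**Figure D2:**
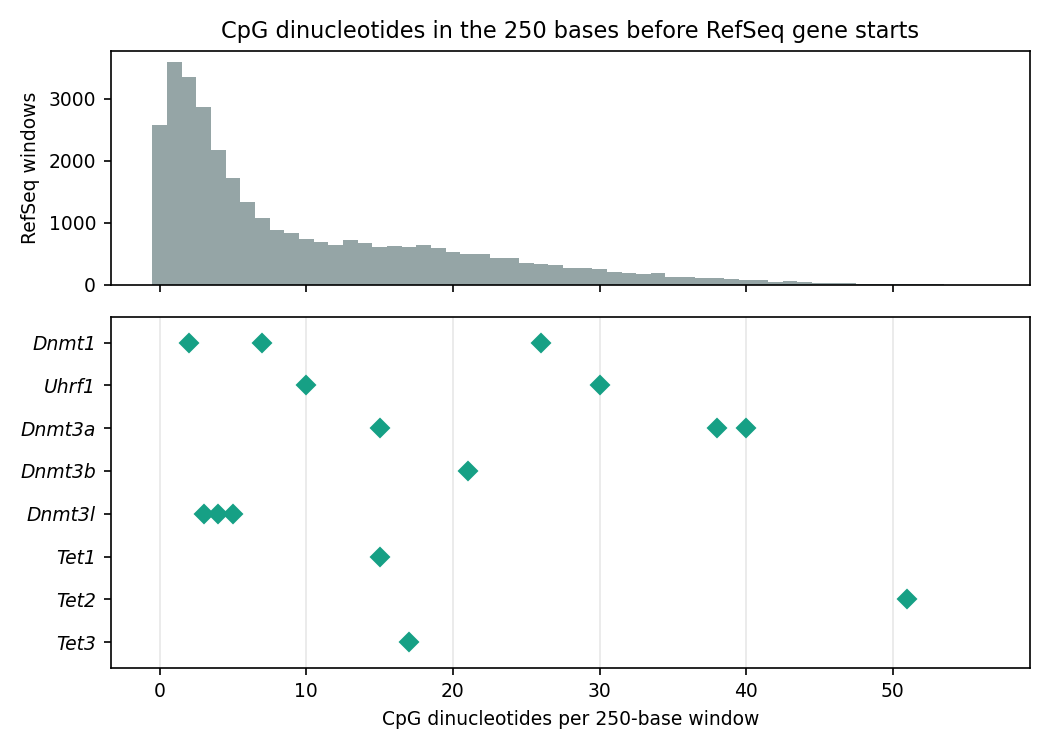
The upper panel counts RefSeq windows (y axis) by the number of CpG dinucleotides in the 250 bases before a gene start (x axis), and the lower panel places each window of the 8 genes on the same x axis, 1 diamond per RefSeq start. The 3 Dnmt3l windows lie at 3 to 5 CpG and the Tet2 window at 51.

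Tet2, a dioxygenase that lacks the CpG-binding CXXC domain of its relatives, lies on chromosome 3 (positions 133463679 to 133545139, minus strand). It had 181.5 and 155.7 CPM with MERVL shRNA, against 115.0 and 82.3 CPM with random shRNA. All MERVL shRNA values were above all random shRNA values, but the random shRNA libraries differed 1.40-fold from each other. Means were 168.6 ± 18.3 CPM with MERVL shRNA and 98.6 ± 23.1 CPM with random shRNA (SD, n = 2 each). Its log2 fold change was 0.77 ± 0.20 (SE; 95% interval 0.30 to 1.25; edgeR adjusted p = 0.329), and 2.01% of features had a smaller p. Same-numbered libraries gave ratios of 1.58 and 1.89. Tet2 is the member whose size of change depended most on single libraries. Its log2 fold change was 1.04 without random shRNA replicate 1 and 0.57 without random shRNA replicate 2. Leaving out MERVL shRNA replicate 1 or 2 gave 0.69 and 0.90.

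Tet1 is the TET enzyme best known from embryonic stem cells, and its level differed little between the groups. It lies on chromosome 10 (positions 62804570 to 62908996, minus strand) and had 334.8 and 320.5 CPM with MERVL shRNA, against 287.7 and 278.5 CPM with random shRNA. The groups did not overlap and both pairs were tight. Its log2 fold change of 0.21 ± 0.14 had an interval of -0.12 to 0.55 (edgeR adjusted p = 0.573), so a rise of up to 1.46-fold and a small decrease were both within it. Tet3, best known from the oocyte and zygote, was scarce, with 5.09 and 4.04 CPM with MERVL shRNA and 4.85 and 4.11 CPM with random shRNA. These are 49 to 81 estimated counts per library, and as CPM of the unscaled totals their 95% Wilson intervals were 4.06 to 6.26 and 3.02 to 5.07 with MERVL shRNA and 3.92 to 6.14 and 3.19 to 5.57 with random shRNA. These intervals, which cover counting error only, all overlap. A difference in Tet3 was not detectable at this depth, and the interval of its log2 fold change ran from -0.73 to 0.78. Tet3 lies on chromosome 6 (positions 83362373 to 83459084, minus strand).

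The de novo enzymes had lower values with MERVL shRNA, by less than the spread between the random shRNA libraries. Dnmt3a (chromosome 12, positions 3806007 to 3914443, plus strand) had 138.5 and 139.1 CPM with MERVL shRNA and 187.6 and 145.3 CPM with random shRNA. Dnmt3b (chromosome 2, positions 153649450 to 153687730, plus strand) had 54.5 and 56.0 CPM with MERVL shRNA and 69.6 and 57.7 CPM with random shRNA. In each the 2 MERVL shRNA libraries nearly coincided just under random shRNA replicate 2, while random shRNA replicate 1 stood above. The log2 fold changes were -0.26 ± 0.17 for Dnmt3a (interval -0.66 to 0.14) and -0.21 ± 0.15 for Dnmt3b (interval -0.56 to 0.15), with edgeR adjusted p-values of 0.554 and 0.613. Without random shRNA replicate 1 they were -0.061 for Dnmt3a and -0.058 for Dnmt3b.

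Dnmt1 and Uhrf1 form the maintenance pair, and neither passed the test. Dnmt1 (chromosome 9, positions 20907209 to 20959888, minus strand) stood at 272.8 and 285.8 CPM in the MERVL shRNA libraries, between the 305.7 and 240.5 CPM of random shRNA replicates 1 and 2. Its log2 fold change was 0.03 ± 0.17 (interval -0.37 to 0.44; edgeR adjusted p = 0.954). Its sign was not stable: it was -0.11 without random shRNA replicate 2 and -0.025 with library totals alone. Uhrf1 (chromosome 17, positions 56303321 to 56323486, plus strand) had 298.9 and 323.1 CPM with MERVL shRNA, against 410.4 and 331.6 CPM with random shRNA. The higher MERVL shRNA library came close to the lower random shRNA library, and the log2 fold change was -0.25 ± 0.17 (interval -0.65 to 0.15; edgeR adjusted p = 0.568). For Uhrf1 it was -0.087 without random shRNA replicate 1.

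Counted together, 6 of the 8 genes had groups that did not overlap, 2 higher (Tet1 and Tet2) and 4 lower (Dnmt3a, Dnmt3b, Dnmt3l and Uhrf1). Over all features the share was 46.2%, with 22.1% higher and 24.1% lower, so for Uhrf1, Dnmt3a, Dnmt3b and Tet1, whose intervals include 0, this order of 4 libraries is common. Random shRNA replicate 1 was above replicate 2 in 7 of the 8 genes, by a median of 0.29 over the 8 on log2(CPM + 1), whereas the MERVL shRNA pair had a median gap of -0.02. Leaving out random shRNA replicate 1, edgeR called Dnmt3l lower and Tet2 higher (2 of the 8, beside 14% of features). Leaving out random shRNA replicate 2, it called 5 of the 8 (beside 32.3% of features), Dnmt3a, Dnmt3b, Dnmt3l and Uhrf1 lower and Tet2 higher. In these fits the lone library is assumed to vary like the pair of the other group. Without MERVL shRNA replicate 1, edgeR called 0 of the 8, beside 0.0116% of features (smallest adjusted p = 0.744), and 1, Tet2, had an unadjusted p under 0.05, beside 6.14% of features. Without MERVL shRNA replicate 2, it called 0 of the 8, beside 0.0115%, and Dnmt3l and Tet2 had an unadjusted p under 0.05, beside 2.88%.

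**Figure D3:**
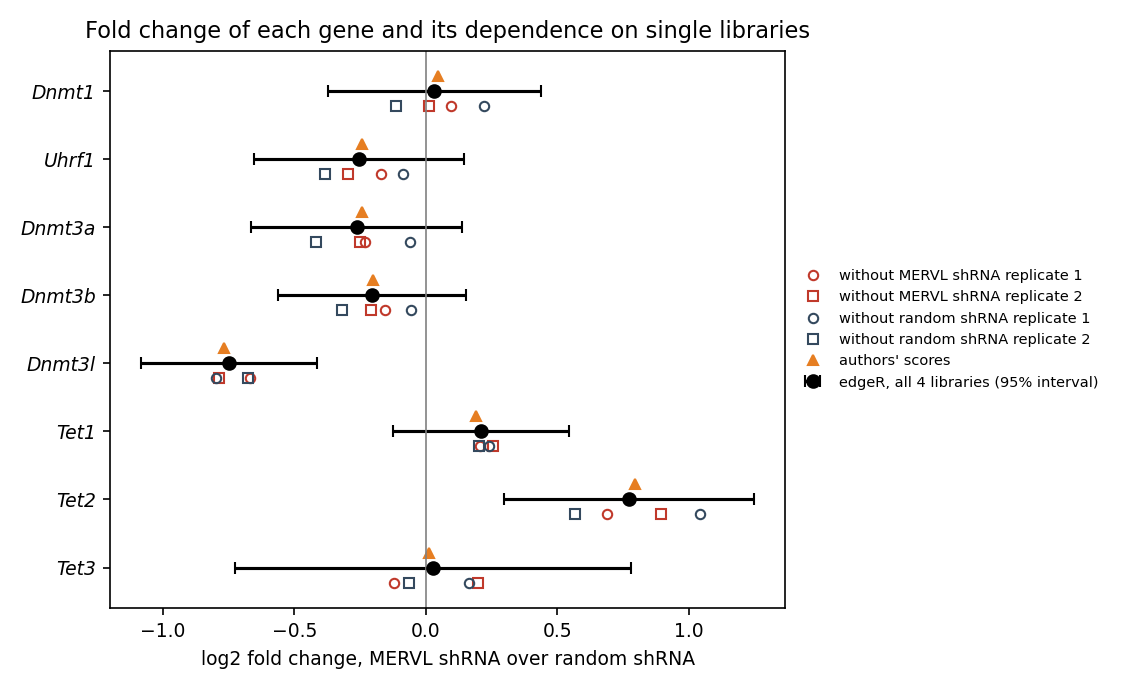
Log2 fold change of each gene (x axis, MERVL shRNA over random shRNA): black points with 95% intervals from edgeR on all 4 libraries, open symbols the fits without 1 library, triangles the authors' deposited scores. Every symbol of Dnmt3l lies below 0 and every symbol of Tet2 above 0, while those of Dnmt1 and Tet3 fall on both sides.

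Ratios within a library do not depend on how libraries are scaled. Per kb of exon, Tet2 had 0.251 and 0.201 times the level of Dnmt3l in MERVL shRNA replicates 1 and 2, against 0.0951 and 0.0630 times in random shRNA replicates 1 and 2. The mean ratio was 2.86-fold higher with MERVL shRNA. It sets the member with the largest rise over the member with the largest fall, so it restates those 2 changes. Dnmt3l over Dnmt3b was 4.01 and 4.19 with MERVL shRNA, against 5.26 and 6.85 with random shRNA, and Dnmt3l over Dnmt3a was 5.14 and 5.50, against 6.36 and 8.86. Dnmt3a over Dnmt3b hardly varied, at 0.780 and 0.762 with MERVL shRNA and 0.827 and 0.773 with random shRNA. Tet2 over Tet1 was 0.497 and 0.445 with MERVL shRNA and 0.366 and 0.271 with random shRNA. Uhrf1 over Dnmt1 was 1.90 and 1.96 with MERVL shRNA and 2.33 and 2.39 with random shRNA. Uhrf1 alone also had groups that did not overlap, while those of Dnmt1 overlapped. All of these ratios except Dnmt3a over Dnmt3b had groups that did not overlap, as had 46.2% of single features. With 2 libraries against 2, an exact permutation test (2-sided) cannot go below p = 0.333, and no other test was run on the ratios.

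Levels of different genes were compared as CPM per kb of annotated exon. Uhrf1 was highest, at 70.2 and 75.9 in the MERVL shRNA libraries and 96.4 and 77.9 in the random shRNA libraries. Dnmt3l came second with 42.8 and 46.0 in MERVL shRNA libraries and 71.7 and 77.4 in random shRNA libraries, so in random shRNA replicate 2 it nearly reached Uhrf1. Dnmt1 followed with group means of 37.9 ± 1.24 and 37.0 ± 6.25 (SD, n = 2 each) with MERVL shRNA and random shRNA, and Tet1 with 21.2 ± 0.654 and 18.3 ± 0.424. Below them, Dnmt3b, Dnmt3a and Tet2 lay between 4.88 and 13.6 in any library. Their order differed between the groups: Tet2 was above Dnmt3a in both MERVL shRNA libraries and below it in both random shRNA libraries. Tet2 and Dnmt3b overlapped in the MERVL shRNA libraries, and Dnmt3a and Dnmt3b nearly met in the random shRNA libraries. Tet3 was lowest at 0.242 to 0.305. As shares of the 3 TET genes per kb, Tet2 made up 32.9% and 30.5% with MERVL shRNA and 26.5% and 21.1% with random shRNA. Length matters to this order: with the longest coding transcript in place of all annotated exons, Dnmt3l was above Uhrf1 in random shRNA libraries (means of 122.2 and 103.5 CPM per kb), and Dnmt3a was above Dnmt3b in both groups.

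**Figure D4:**
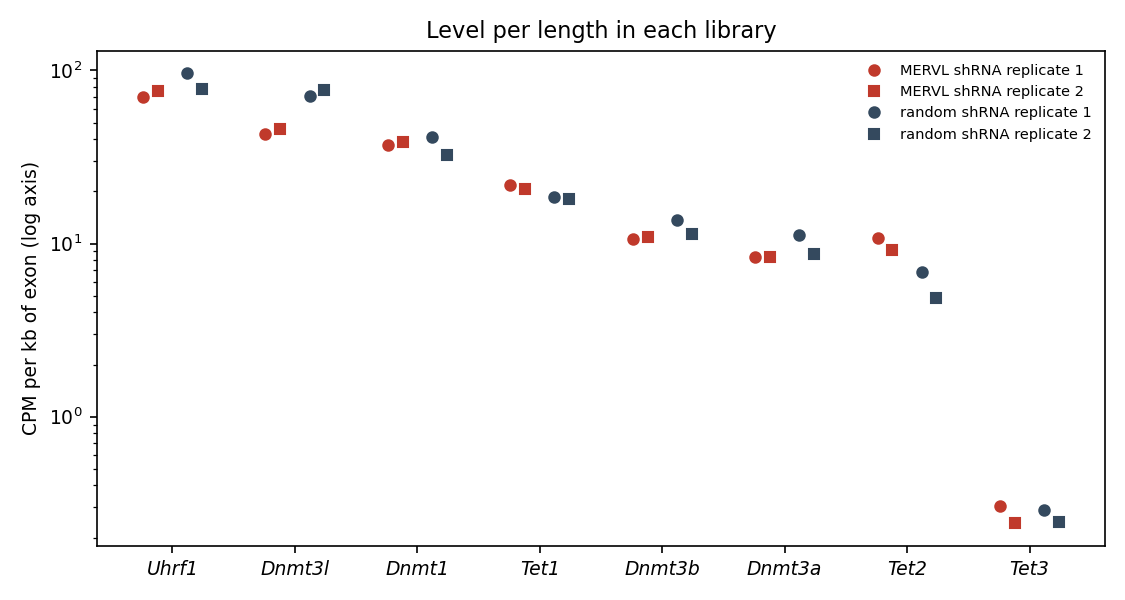
CPM per kb of annotated exon (log axis) in each library, with genes ordered from left to right by their random shRNA mean; red is MERVL shRNA, dark is random shRNA, circles are replicate 1 and squares replicate 2. The genes span from about 0.242 for Tet3 to 96.4 for Uhrf1, and Dnmt3l and Tet2 show the widest separation of the groups.

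A further table from the authors gives normalized scores, and how the scores were made is not stated in the sources used here. In it the random shRNA libraries lie much closer together than in CPM: the median absolute log2 gap of this pair over 9517 features with a mean of at least 10 CPM was 0.02 in scores and 0.26 in CPM, and for the 8 genes it was 0.03 and 0.29. The MERVL shRNA pair had 0.10 on both. Scores of Dnmt3l were 1826 and 1970 with MERVL shRNA, against 3107 and 3363 with random shRNA, and those of Tet2 were 2626 and 2244, against 1460 and 1342. With limma on log2(score + 1), Dnmt3l (-0.77 ± 0.07, adjusted p = 0.0340), Tet2 (0.79 ± 0.11, adjusted p = 0.0388) and Dnmt3a (-0.24 ± 0.04, adjusted p = 0.0489) were called, 3 of the 8 beside 19.6% of all scored features. The fold changes are near those from counts, and the spread they are set against is smaller, as the random shRNA pair lies closer together. Since how the scores were made is unknown, p-values on them may not measure the spread between replicates. With edgeR and no filter on low counts, Dnmt3l and Tet2 were called, 2 of the 8 beside 4.75% of features.

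Reads shared with other genes touch some members. Of the 50-base stretches in Dnmt3b transcripts, 9.81% also stand in Dnmt3c, a rodent methyltransferase of male germ cells, and 15.4% of those of Uhrf1 stand in other genes, nearly all in Gm5648. For the other 6 genes the share was at most 0.761%. Dnmt3c itself had 0 and 1 estimated counts in the MERVL shRNA libraries and 3 and 2 in the random shRNA libraries, too few to test, and Gm5648 had 6 to 9 in all libraries. Dnmt3l shares 67 bases of exon, 2.24% of its exon length, with Aire, which runs on the opposite strand. The sources used here do not say whether counting used strand, so their reads there may not be told apart. Aire stood at 43.2 and 30.8 CPM with MERVL shRNA and 25.6 and 79.9 CPM with random shRNA. Its log2 fold change was -0.50 ± 0.49 (SE, edgeR adjusted p = 0.711). The sign was that of Dnmt3l, and random shRNA replicate 2 was above replicate 1 in both genes. In the MERVL shRNA pair the orders were opposite, with Aire higher in replicate 1 and Dnmt3l higher in replicate 2. The groups of Aire overlapped. The part of Aire reads in the Dnmt3l values was not tested.

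The patterns nearest to each gene were taken by Euclidean distance between centred log2(CPM + 1) values over the 4 libraries, among 12687 genes. Nearest to Dnmt3l were Sec61b (distance 0.0485) and Snora24 (0.0522), with 79 genes within 0.2. Tet2 had the fewest such genes, 15, led by Halr1 (0.0387) and Myadml2os (0.113). The others had 775 to 1755 genes that close. Their nearest were Foxk1 and Stk4 for Dnmt1, Lrpap1 and Mdm2 for Dnmt3a, Sgta and Tacc3 for Dnmt3b, Snx3 and Ybx3 for Uhrf1, Gclc and Pex19 for Tet1, and Ppp4r3b and Fmr1 for Tet3. Distance from a flat pattern was 0.867 for Tet2, 0.751 for Dnmt3l and 0.217 to 0.359 for the others. Counts within a fixed distance depend on how far a gene itself varied, so they do not by themselves mark a rarer pattern. Distances over 4 libraries are a description.

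Genes that work with these enzymes were read from fixed lists by counts and medians, without a test, beside a median log2 fold change of -0.01 over all features. None of the genes in these lists passed edgeR over all features, nor did limma-voom call any, beside 0.00612% and 0% of all features. DESeq2 called Amd1, Dazl and 5 of the 2-cell-like genes, all lower, beside 1.13% of all features called lower. With no filter on low counts, edgeR called Cxxc5 higher and Uhrf2, Amd1, 5 germline genes and all 10 tested 2-cell-like genes lower. That setting called 0.991% of all features higher and 3.76% lower. Among 10 genes that read methylated or hemimethylated CpG, 5 were positive and 5 negative, with a median of 0.01 that ran from -0.059 to 0.096 with a library left out. Uhrf2, the paralog of Uhrf1, was the only one with an unadjusted p under 0.05: it stood at 54.9 and 56.3 CPM with MERVL shRNA and 76.2 and 88.4 CPM with random shRNA (log2 fold change -0.57 ± 0.14, edgeR adjusted p = 0.329). Of the methyl-CpG binding proteins, Mbd4 (-0.36 ± 0.15), also a glycosylase, and Mbd1 (-0.43 ± 0.20) were lower in value, and Mbd3 (-0.05 ± 0.15) was near 0.

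Partners and regulators of the methyltransferases had a median of -0.06 over 19 tested genes, 8 positive and 11 negative, and the median was 0.074 without random shRNA replicate 1 and -0.028 without random shRNA replicate 2. The H3K36 methyltransferase Nsd1, whose mark is bound by Dnmt3a, had 246.3 and 232.4 CPM with MERVL shRNA and 185.5 and 157.7 CPM with random shRNA (0.48 ± 0.15, edgeR adjusted p = 0.329), and it alone of this list had an unadjusted p under 0.05. The H3K9 methyltransferase Ehmt2 had 0.31 ± 0.13. The remodeller Hells and its partner Cdca7, needed for methylation of repeats, had -0.23 ± 0.15 and -0.28 ± 0.13. Prdm14, a repressor of Dnmt3b and Dnmt3l in embryonic stem cells, stood at 27.2 and 31.4 CPM with MERVL shRNA, against 27.1 and 19.6 CPM with random shRNA (0.32 ± 0.20, edgeR adjusted p = 0.554). Its values nearly met in replicate 1. Dppa3, which keeps Uhrf1 from chromatin, was too scarce to test at 0.503 and 0.497 CPM with MERVL shRNA and 0.319 and 1.26 CPM with random shRNA.

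TET partners and base excision repair genes, which follow oxidation in demethylation, had a median of 0.17 over 21 tested genes, and of 0.065 without random shRNA replicate 1. There 14 were positive, 3 had an unadjusted p under 0.05 and were higher, beside 4.69% of all features, and 0 were lower. These were Cxxc5, a CXXC protein that can bind Tet2, with 80.5 and 82.4 CPM with MERVL shRNA and 55.5 and 56.7 CPM with random shRNA (0.54 ± 0.13), the repair polymerase Polb (0.52 ± 0.17) and the glycosylase Neil1 (0.66 ± 0.25), with edgeR adjusted p-values of 0.329, 0.329 and 0.349. The thymine DNA glycosylase Tdg, which excises the oxidised bases, had 0.20 ± 0.16. Genes of the methyl donor cycle, which make and recycle S-adenosylmethionine, had a median of -0.12 over 22, with 8 positive, and the sign turned without random shRNA replicate 1 (0.059). Amd1, which diverts S-adenosylmethionine to polyamines, stood at 131.6 and 139.3 CPM with MERVL shRNA and 245.6 and 211.0 CPM with random shRNA (-0.75 ± 0.15, edgeR adjusted p = 0.300), and Amt of glycine cleavage had 0.39 ± 0.13. Mat2a and Mat2b, subunits of the synthesising enzyme, had -0.23 ± 0.24 and 0.34 ± 0.14, Ahcy -0.27 ± 0.15 and Tdh 0.13 ± 0.16. The tRNA methyltransferase Trdmt1, a relative of the Dnmt family, had 0.26 ± 0.19.

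Genes in the list of germline genes with methylated promoters mostly had lower values with MERVL shRNA. Whether these promoters were methylated in the cells used was not measured. Of 20 tested, 19 were negative, with a median of -0.78, and 16 had groups that did not overlap, the MERVL shRNA group being lower, beside 24.1% of all features. At an unadjusted p under 0.05 edgeR gave 11 lower and 0 higher, beside 8.92% and 4.69% of features, and 0 passed after adjustment. Dazl, which binds RNA in germ cells, was at 89.1 and 65.3 CPM with MERVL shRNA and 216.4 and 157.1 CPM with random shRNA (-1.28 ± 0.22, edgeR adjusted p = 0.283). Brdt (-1.76 ± 0.46) and Tex101 (-2.03 ± 0.53) were under 4 CPM in every library, and Mael, of the piRNA pathway, had -0.43 ± 0.19. The median was -0.56 without random shRNA replicate 1. Genes of the 2-cell-like state, whose cells are known to carry little DNA methylation, had a median of -2.12 over 10 tested, all negative, and -1.03 without random shRNA replicate 1. Zscan4c was at 101.3 and 53.8 CPM with MERVL shRNA and at 438.3 and 123.9 CPM with random shRNA replicates 1 and 2. Between groups Dnmt3l and Zscan4c had the same direction, with log2 fold changes of -0.75 and -1.86. Within each replicate pair their order was opposite, but there the Dnmt3l values differed little. They were 127.8 and 137.4 CPM with MERVL shRNA and 214.1 and 231.3 CPM with random shRNA. The direction of these lists was known from earlier results of these data and is not independent evidence. The part of 2-cell-like cells in the values of the 8 genes was not tested.

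**Figure D5:**
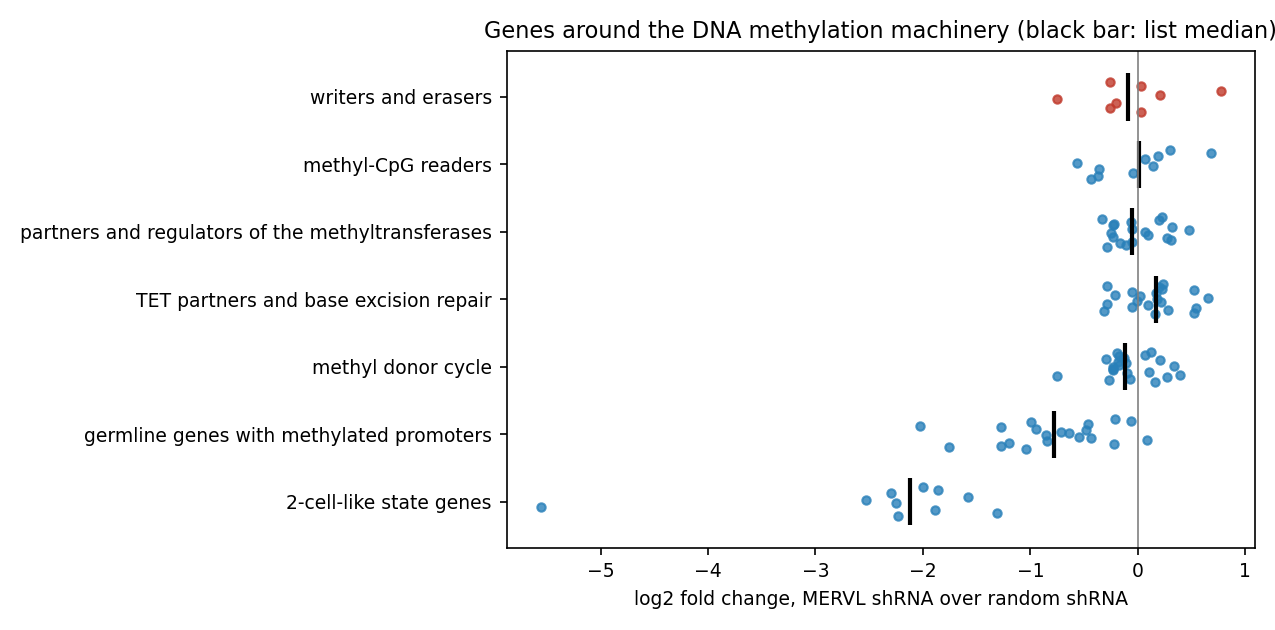
Log2 fold change (x axis, MERVL shRNA over random shRNA) of every tested gene in each list, 1 point per gene, red for the writers and erasers and blue for the context lists, with a black bar at the list median. Medians lie between -0.12 and 0.17 except in the germline and 2-cell-like lists, at -0.78 and -2.12.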

How the data were processed

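Trim Galore, HISAT2 and genome build mm10 are named, per the submitters' processing notes, without versions. The counting program and its handling of strand are not given in these sources. The authors deposited estimated counts for 45773 features, 43496 Ensembl genes and 2277 MERVL copies, and a second table of normalized scores for each library, made in a way that no source used here describes. All columns were mapped to samples by title. Symbols matched 42329 Ensembl identifiers, and positions and exon lengths came from GENCODE annotation of GRCm38 (mm10); promoter windows came from RefSeq, which held all 8 members.

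Estimated counts were rounded, scaled by TMM and filtered with filterByExpr, which left 15735 genes and 618 copies. MERVL shRNA was compared with random shRNA in edgeR 4.0.16 under R 4.3.3 by its quasi-likelihood F test, 2-sided and with no replicate term. Adjustment was Benjamini-Hochberg over all features, called at 0.05, and standard errors come from the F statistic. DESeq2 1.42.0, limma-voom and limma on log2(score + 1) (limma 3.58.1; features with a mean score of at least 1) were alternatives, as were other scalings and filters, a robust prior, genes alone, a replicate block and leaving out each library. The tests were run on simulated data first. With 2 libraries per group precision is limited, and intervals on counts cover counting error only.

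The members and lists were chosen with earlier results of these data known. All 8 members were named, with Dnmt3c, Trdmt1, a fixed set of partners (Uhrf2, Hells, Prdm14, Dppa3, Tdg, Mbd3, Mat2a, Ahcy, Tdh, Dazl, Mael and Zscan4c, and 1 gene that is not reported here), up to 3 genes of smallest p per list, and the 2 nearest patterns per member.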

Additional observations from a re-analysis of the deposited data

How the results depend on the processing

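Across 16 alternatives, Dnmt3l stayed below 0 (log2 fold change -0.81 to -0.67) and Tet2 above 0 (0.57 to 1.04), as did Tet1, Dnmt3a, Dnmt3b and Uhrf1 on their own sides. Dnmt3l passed unfiltered (-0.73), in DESeq2 (-0.73), under a replicate block (-0.75) and with the authors' scores (-0.77 with a pseudocount of 1 or 0.1). Tet2 passed under the same settings, unfiltered (0.79), in DESeq2 (0.79), under the block (0.79) and the scores (0.79 with either pseudocount), and Dnmt3a passed with the scores and a pseudocount of 1 (-0.24). Members called were thus 1 higher and 1 lower under each of these, except 2 lower with the scores and a pseudocount of 1. Of all features, 4.75% were called unfiltered, 1.62% in DESeq2 and 4.51% under the block. With the scores 19.6% (pseudocount 1) and 18.5% (pseudocount 0.1) were called, under the limit on their spread given above. Dnmt1 turned negative with library totals alone (-0.025), and so did Tet3 (-0.028). With a library left out, log2 fold changes ran from -0.11 to 0.22 for Dnmt1, -0.12 to 0.20 for Tet3, -0.42 to -0.061 for Dnmt3a, -0.32 to -0.058 for Dnmt3b, -0.38 to -0.087 for Uhrf1, -0.80 to -0.67 for Dnmt3l, 0.20 to 0.26 for Tet1 and 0.57 to 1.04 for Tet2. The members called in these fits are given above, beside the shares of all features.

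Over all genes edgeR called 1 higher and 0 lower as reported, 270 and 467 without filtering, 110 and 252 under the replicate block (4.51% of all features), 2 to 2557 and 0 to 2243 with a library left out; DESeq2 called 70 and 104, limma-voom 0 and 0, and limma on scores 1660 and 1733 (pseudocount 1) or 1580 and 1632 (pseudocount 0.1). The replicate block changed no other member's call, and in the gene lists it called Amd1, Brdt, Dazl, Tex101 and all 10 tested 2-cell-like genes, each lower. Same-numbered libraries deviated together with a correlation of 0.22 over features. With 2 pairs and no label that says what a number marks, what else they share is not known. List medians left their own spread in 4 cases: methyl donor genes at 0.059, germline genes at -0.56 and 2-cell-like genes at -1.03 without random shRNA replicate 1, and germline genes at -0.67 with the scores and a pseudocount of 1. With a library left out, these medians ran from -0.16 to 0.059, -0.78 to -0.56 and -2.60 to -1.03. The cause of these shifts was not tested. Levels per length with the longest coding transcript were chosen after seeing the data.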
